A study of Mus musculus with 6 samples.

Results

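The collagens are the main structural proteins of the spaces between cells. Described here are 34 collagen genes whose products lie mostly outside cartilage, chosen by name from the collagen family, of 34989 genes measured. They fall into 7 classes: fibrillar, basement membrane, short-chain network, beaded, FACIT (collagens that attach to the surface of fibrils), transmembrane and other. All 34 passed the filter on low counts and were tested.

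RNA was measured by sequencing of polyadenylated transcripts in mouse handpads, the paddles that become the hands, at stage E14.5 (embryonic day). The series concerns the separation of the digits and the epithelium that covers them. The 2 groups were Grhl3 knockout handpads and wild-type handpads, with 3 libraries each, all from C57BL/6 mice of the same stage. Grhl3 encodes a DNA-binding regulator of the grainyhead family that acts in surface epithelium. The labels give no promoter, Cre line or deleted segment for the knockout, and they do not say whether a library came from 1 embryo or a pool, so p-values measure the spread between these libraries, which may be technical.

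The knockout libraries held 47642524 to 56037639 estimated counts and the wild-type libraries 38052692 to 48984542. Counts were scaled to the size of each library (CPM). Grhl3 itself had 3.11, 2.86 and 2.95 CPM in the knockout libraries, against 14.3, 45.7 and 18.5 CPM in the wild-type ones, and fell by 3.14 on the log2 scale (adjusted p = 0.0221, edgeR quasi-likelihood test). That call was lost without wild-type replicate 3 (adjusted p = 0.0806) or without knockout replicate 1, 2 or 3 (0.162, 0.0759 and 0.121, edgeR), at log2 fold changes of -3.35 to -3.12. It was also not made with limma-voom (log2 fold change -2.99, adjusted p = 0.0743) or with a Y-linked term in the edgeR fit (-2.22, adjusted p = 0.0759). Limb identity genes were present in every library, since Hoxd13, Hoxa13 and Tbx5 together had 364.2 to 531.7 CPM in knockout and 447 to 533 CPM in wild-type libraries. Summed CPM of 4 Y-linked genes, on plain library totals, was 3.39 to 4.42 in the knockout libraries and 5.36 in wild-type replicate 1, but 290 and 341 in wild-type replicates 2 and 3. Wild-type replicate 1 also had the shortest mean transcript per count, 3148 bases, against 3347 to 3625 bases in the other libraries.

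Each collagen molecule is a triple helix of 3 alpha chains, and each chain has its own gene. Fibrillar collagens form the cables of dermis, tendon and bone, and type IV collagen forms the sheet-like network of basement membranes under epithelia and around vessels. In skin, that sheet carries the epidermis, and type VII collagen ties it to the dermis below.

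The results turn most on the type IV chain genes Col4a6 and Col4a5, which stand head to head on the X chromosome. Their annotated start sites are 1309 bases apart. The sequence before each start site is shown because the genes share this short interval and both had higher fitted levels in the knockout. Sequences are from RefSeq (GRCm38.p6, the assembly that mm10 names), 5′ to 3′ on the strand of each gene, and capitals mark a match on either strand to GGGCGG (the GC box) or CCAAT.
Col4a6, minus strand, chrX:141474077-141474326: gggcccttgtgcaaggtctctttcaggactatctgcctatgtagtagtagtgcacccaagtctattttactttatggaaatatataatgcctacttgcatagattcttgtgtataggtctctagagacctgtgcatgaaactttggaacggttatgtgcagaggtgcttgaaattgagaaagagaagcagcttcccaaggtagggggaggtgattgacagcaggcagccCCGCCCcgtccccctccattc
Col4a5, plus strand, chrX:141475169-141475384: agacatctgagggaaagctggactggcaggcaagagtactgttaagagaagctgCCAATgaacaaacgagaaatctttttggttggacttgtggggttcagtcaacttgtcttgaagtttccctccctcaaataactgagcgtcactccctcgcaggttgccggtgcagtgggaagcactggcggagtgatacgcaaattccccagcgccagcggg

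The Col4a6 stretch was 47.6% G and C, and the Col4a5 stretch, which stops 34 bases short of the RefSeq start so as to end before the first annotated exon, was 52.3%. The median over the 250 bases before the start in all 32851 RefSeq windows was 52.4%. Col4a6 had 1 GC box in capitals, and Col4a5 had a CCAAT match in capitals and a GC box in the bases not printed. Neither TATAAA nor the grainyhead motif AACCGGTT, nor its form AACNGGTT with 1 free base, was in either window of 300 bases, which runs from 250 bases before to 50 bases after the RefSeq start. Windows were found for 27 of the 34 collagen genes, 29 windows in all. AACCGGTT was in 0 of these 29 and in 0.146% of all windows, and AACNGGTT, which includes the first motif, was in 0 of 29 and in 2.09% of all windows. GGGCGG was in 18 of 29 collagen windows (62.1%) and in 35.7% of all windows. CCAAT was in 9 (31%) and in 37.4%, and TATAAA in 2 (6.9%, Col13a1 and Col3a1) and in 13.6%. The E-box CANNTG was in 15 (51.7%) and in 72.3%, and the AP-1 site TGANTCA in 1 (3.45%, Col6a1) and in 7.81%. All motifs were searched on both strands.

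None of the 34 collagen genes passed the test between knockout and wild-type at a false discovery rate under 0.05, where 0.431% of all 16938 tested genes did, 0.348% higher and 0.0827% lower (edgeR quasi-likelihood test, Benjamini-Hochberg adjustment over all tested genes). At an unadjusted p under 0.05, 2 collagen genes were higher in the knockout, Col4a6 and Col4a5, and 2 were lower, Col22a1 and Col4a3. The background of such genes was 7.22% over all tested genes, 3.81% higher and 3.41% lower. The groups did not overlap for 4 of the 34, the same 4 genes, and for 12.9% of all tested genes. DESeq2 and the likelihood ratio test of edgeR each called 1 collagen gene, Col4a6, at adjusted p = 0.00113 and 0.00592. The background of calls was 1.77% of genes with DESeq2 and 1.54% with the likelihood ratio test.

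Fitted log2 fold changes, knockout minus wild-type, ran from -0.82 to 0.94. They were positive for 22 collagen genes and negative for 12, with a median of 0.053, and the median of all tested genes was -0.0045. The 95% interval lay within 2-fold either way for 27 of the 34 and within 1.5-fold for 15. Libraries of 1 group also differed from each other. The ratio of highest to lowest library, taken in the more variable group of each gene, had a median of 1.63. That ratio was above 2-fold for 8 genes. It compares single libraries, so it is not on the same footing as a fold change between groups.

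**Figure D1:**
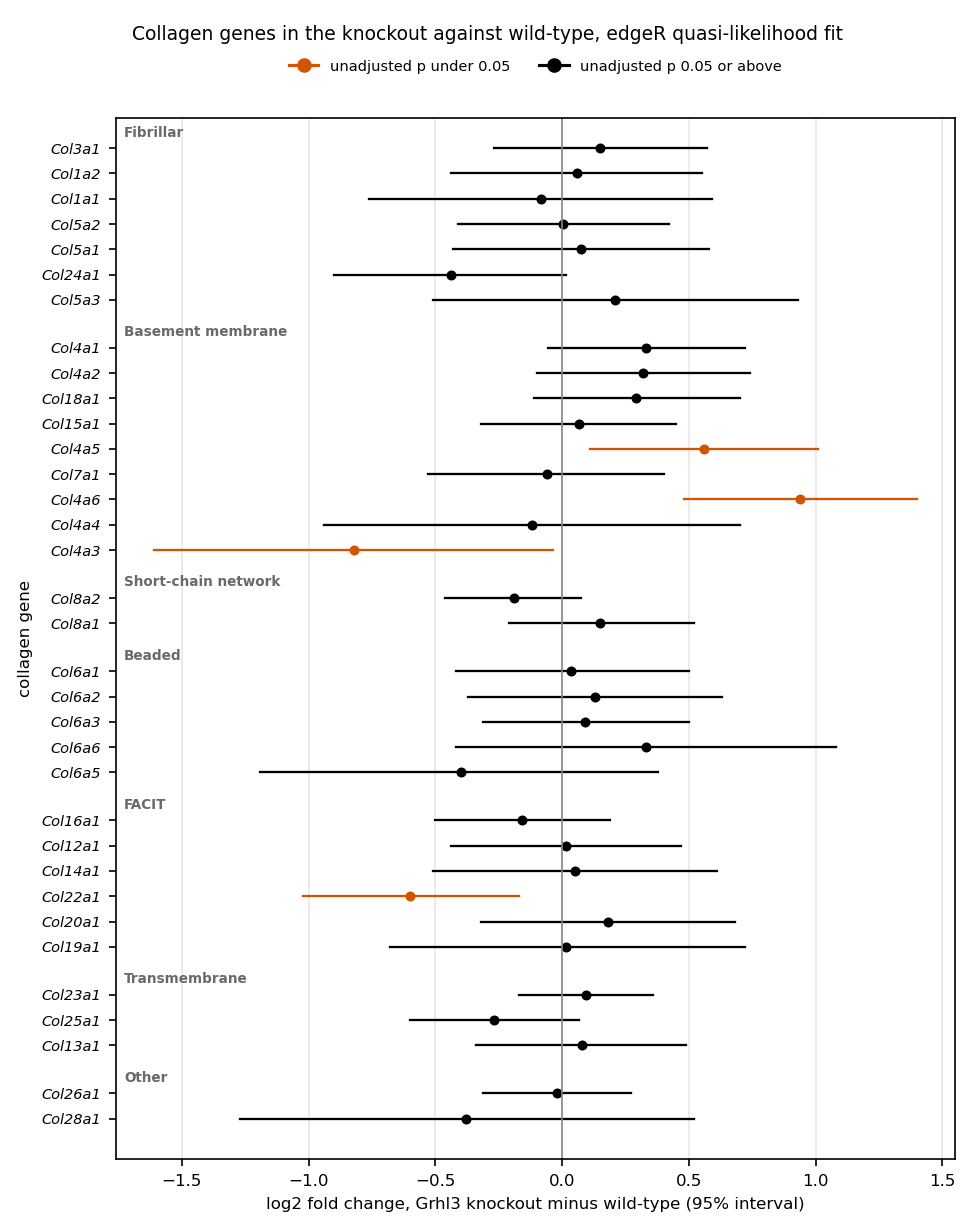
Log2 fold change of each of the 34 collagen genes (rows, by class), Grhl3 knockout minus wild-type, from the edgeR quasi-likelihood fit on 3 libraries per group, with bars for the 95% interval. Orange marks the 4 genes with an unadjusted p under 0.05, and the points run from -0.82 for Col4a3 to 0.94 for Col4a6.

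Levels of different genes are compared here as CPM per kilobase of the longest coding transcript. On this scale Col3a1, Col1a2 and Col1a1 were the most abundant, at 482, 476 and 372 CPM per kilobase averaged over the 6 libraries. Together they made up 53.1% to 58.1% of the summed collagen level in knockout and 53.9% to 58.7% in wild-type libraries. These top positions overlapped between libraries, from 396 to 579 for Col3a1 and from 368 to 571 for Col1a2, so their order is not fixed. After them came Col5a2 at 149, Col6a1 at 106, Col26a1 at 103 and Col5a1 at 102. In all 7 genes averaged 100 or more, 12 lay from 10 to 100, 9 from 1 to 10 and 6 under 1. The lowest were Col4a3 at 0.044 and Col4a4 at 0.0652. The 34 genes together took 1.1% to 1.64% of the counts of a knockout library and 1.11% to 1.6% of a wild-type library.

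**Figure D2:**
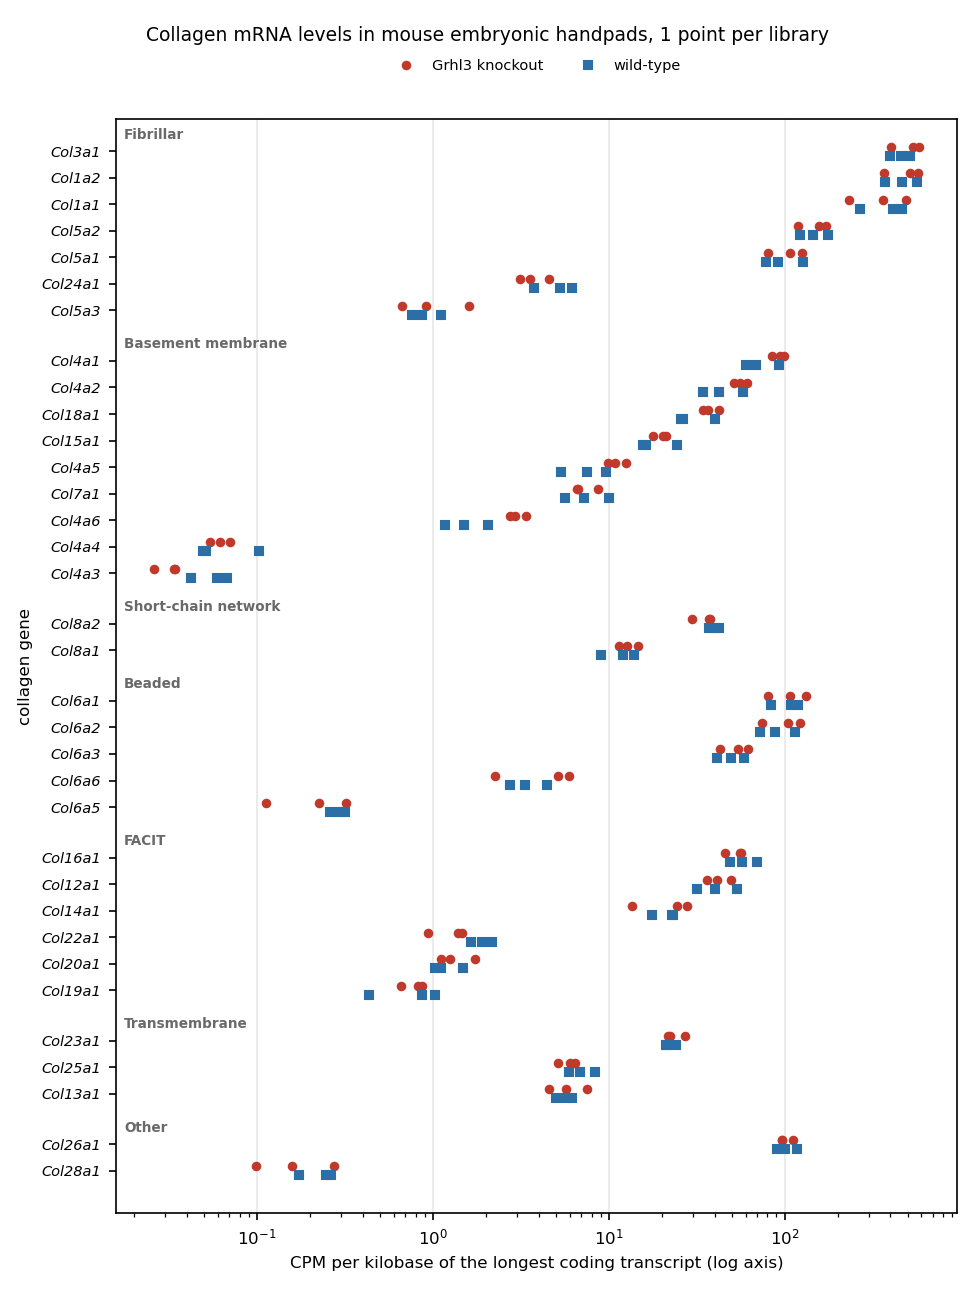
Level of each collagen gene in CPM per kilobase of its longest coding transcript (log axis), 1 point per library, with Grhl3 knockout as red circles above wild-type as blue squares. The groups overlap in all rows but those of Col4a5, Col4a6, Col4a3 and Col22a1, and the levels span from 0.0261 to 579.

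The fibrillar class held 63.9% to 68.2% of the summed collagen level in knockout libraries and 66% to 68.3% in wild-type libraries. Its 7 genes had a median log2 fold change of 0.057, with 5 positive and 2 negative. Col1a1 and Col1a2 encode the chains of type I collagen, the collagen of dermis, tendon and bone. Col1a1 had 2143, 1379 and 2908 CPM in the knockout libraries, against 2459, 2763 and 1585 CPM in the wild-type libraries. The lowest and the highest library were both knockouts, so the spread within the knockout group covered the wild-type range. Its log2 fold change was -0.08 (95% interval -0.76 to 0.59, adjusted p = 0.994, edgeR). Col1a2 had 2774, 1968 and 3051 CPM in knockout and 2494, 3010 and 1987 CPM in wild-type libraries, again with full overlap, and a log2 fold change of 0.06 (-0.44 to 0.55).

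The common type I molecule takes more alpha1 than alpha2 chains, yet the Col1a1 transcript was below Col1a2 in every library. The ratio of Col1a1 to Col1a2, in CPM per kilobase, was 0.697, 0.632 and 0.859 in knockout and 0.889, 0.828 and 0.719 in wild-type libraries. Markers of osteoblasts, cells rich in type I collagen, had a lower sum over 6 genes in the knockout. It was 39.69 to 53.48 CPM, against 63.11 to 202 CPM in wild-type. Ibsp had 0.304 to 1.58 CPM in knockout and 95.9, 0.642 and 65 CPM in wild-type libraries. Spp1 had 3.2 to 5.87 CPM in knockout and 27.5, 3.65 and 15.9 CPM in wild-type libraries. Both overlapped through wild-type replicate 2, as did Alpl, while Runx2 and Sp7 did not overlap. Of the 5 osteoblast markers that could be tested, 4 were lower at an unadjusted p under 0.05, as were 3.41% of all tested genes. None of the 5 passed over all genes. Bglap, a marker of mature osteoblasts, was at 0 in all libraries but wild-type replicate 1, where it had 0.0264 CPM. The part of bone cells in the collagen values was not tested. In whole tissue, fewer cells of a type and less RNA per cell cannot be told apart.

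Col3a1, which encodes the chain of type III collagen of soft, stretchable tissue, had 3004, 2247 and 3220 CPM in knockout and 2557, 2875 and 2201 CPM in wild-type libraries. Its groups overlapped (log2 fold change 0.15, -0.27 to 0.57, adjusted p = 0.967, edgeR). Type V collagen limits the width of type I fibrils, and its chain genes Col5a1 and Col5a2 had log2 fold changes of 0.08 and 0.0042. Col5a2 lies tail to tail with Col3a1 on chromosome 1, 24614 bases from it. Col5a3, a minor type V chain, had 4.09 to 9.88 CPM in knockout and 4.66 to 6.87 CPM in wild-type libraries. Col24a1, a fibrillar collagen known from developing bone and eye, had 32.7, 25.6 and 22.5 CPM in knockout and 27, 38 and 44.5 CPM in wild-type libraries. Its log2 fold change was -0.44 (-0.90 to 0.02, unadjusted p = 0.0571, adjusted p = 0.71, edgeR), and it was 0.02 in a fit with a Y-linked term. Set against 1000 CPM of 13 summed cartilage markers, Col24a1 had 5.34 to 7.13 CPM in knockout and 5.18 to 8.11 CPM in wild-type libraries, which overlapped.

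The basement membrane class had the highest median fold change of the 7 classes. Its share of the summed collagen level was 9.11%, 11% and 8.72% in the knockout libraries, against 7.23%, 8.69% and 7.99% in the wild-type libraries. The shares did not overlap, although knockout replicate 3 and wild-type replicate 2 almost met. Summed levels did overlap, with 229.7, 207.9 and 246.2 CPM per kilobase in knockout and 165.1, 237.3 and 153.3 in wild-type libraries. The 9 genes had a median log2 fold change of 0.29, with 6 positive and 3 negative, and the median was 0.53 without wild-type replicate 2. Leaving out wild-type replicate 3 gave a median of 0.18, and leaving out wild-type replicate 1 gave 0.20.

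Col4a6 encodes the alpha6 chain of type IV collagen, a chain of the basement membranes of epidermis and smooth muscle. The gene (ENSMUSG00000031273.16) runs from 141165403 to 141474076 on the minus strand of the X chromosome (mm10). It had 19.5, 18.3 and 22.6 CPM in the knockout libraries, against 7.77, 13.7 and 10 CPM in the wild-type libraries. Every knockout library was above every wild-type library, and wild-type replicate 1, the one without Y-linked expression, was the lowest of all. The mean was 20.1 ± 2.19 CPM in knockout and 10.5 ± 2.99 CPM in wild-type (SD, n = 3 each). The log2 fold change was 0.94 (SE 0.2, 95% interval 0.48 to 1.40, unadjusted p = 0.00144, adjusted p = 0.153, edgeR), so the gene did not pass the test. The value was 0.76 without wild-type replicate 1, 1.18 without wild-type replicate 2 and 1.41 when summed Y-linked expression was a term of the fit (adjusted p = 0.0737, 0.0621 and 0.0553, edgeR). Over all alternatives its adjusted p ran from 0.00113 with DESeq2 to 0.598 without wild-type replicate 3. In the authors' deposited table Col4a6 has a log2 fold change of 0.93 and a false discovery rate of 0.00623.

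Col4a5 encodes the alpha5 chain, which joins the alpha6 chain in one kind of type IV molecule and the alpha3 and alpha4 chains in another. The gene (ENSMUSG00000031274.16) runs from 141475385 to 141689234 on the plus strand of the X chromosome. It had 81.7, 64.6 and 71 CPM in the knockout libraries, against 35, 63 and 49.6 CPM in the wild-type libraries. The groups did not overlap, but knockout replicate 2 and wild-type replicate 2 were close. The log2 fold change was 0.56 (SE 0.2, 0.11 to 1.01, unadjusted p = 0.0209, adjusted p = 0.502, edgeR). It was 0.36 without wild-type replicate 1 and 1.08 with the Y-linked term. Both genes are X-linked, and of the libraries without Y-linked expression only 1 was wild-type, so the Y-linked term rests on that library. In the authors' deposited table Col4a5 has a log2 fold change of 0.56 and a false discovery rate of 0.312.

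Although the genes stand back to back, their balance was not the same in the groups. The ratio of Col4a5 to Col4a6, in CPM per kilobase, was 4.27, 3.58 and 3.2 in knockout and 4.58, 4.68 and 5.02 in wild-type libraries, with no overlap. The Col4a6 to Col4a2 ratio was 0.0526, 0.0534 and 0.0554 in knockout and 0.0276, 0.0353 and 0.0439 in wild-type libraries, also with no overlap. The Col4a5 to Col4a1 ratio did overlap, with 0.133, 0.117 and 0.109 in knockout and 0.0782, 0.104 and 0.126 in wild-type libraries. These ratios were chosen after the values were seen and carry no test.

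Col4a6 and Col4a5 were set beside markers of the epidermis and of smooth muscle. The sum of 7 epidermal markers (Krt14, Krt5, Krt15, Trp63, Cdh1, Epcam and Cldn3) was 2424 to 3314 CPM in knockout and 1250 to 2101 CPM in wild-type libraries. All 7 had positive fold changes, 6 of them at an unadjusted p under 0.05, and 0 passed over all genes. Of all tested genes, 3.81% were higher at that unadjusted p. Per 1000 CPM of that sum, Col4a6 had 5.88, 7.57 and 7 CPM in knockout and 6.03, 6.52 and 8.04 CPM in wild-type libraries, and the groups overlapped. Keratins make up most of that sum. Against Trp63 alone, the master regulator of stratified epithelium, whose own log2 fold change was 0.18 (adjusted p = 0.918, edgeR), Col4a6 had 218 to 249 CPM per 1000 in knockout and 120 to 147 CPM per 1000 in wild-type libraries. So for Col4a6 the groups overlapped against the sum and separated against Trp63. Trp63 had the lowest fold change of the 7 markers, whose median was 0.79, and no other single marker was used. Col4a5, on the same scale of summed epidermal markers, had 22 to 26.6 CPM in knockout and 27.1 to 39.7 CPM in wild-type libraries. Against Trp63 alone, Col4a5 had 783 to 914 CPM per 1000 in knockout and 542 to 697 CPM per 1000 in wild-type libraries, without overlap. The groups of Col4a5 thus separated on both scales, lower in the knockout against the sum and higher against Trp63.

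Markers of pericytes and smooth muscle, 6 genes, summed to 531.3 to 581.8 CPM in knockout and 447.2 to 512.7 CPM in wild-type libraries, also without overlap. An unadjusted p under 0.05 was reached by 2 of the 6, both higher in the knockout, as were 3.81% of all tested genes. None of the 6 passed over all genes. Myh11, the myosin of smooth muscle, had 4.22, 3.58 and 4.42 CPM in knockout and 2.19, 2.11 and 2 CPM in wild-type libraries (log2 fold change 0.96, adjusted p = 0.0992, edgeR). Acta2, smooth muscle actin, had 137, 89.6 and 141 CPM in knockout and 97, 57.8 and 52.2 CPM in wild-type libraries (0.83, adjusted p = 0.392, edgeR). Both genes were named after their values were seen, and they had the highest fold changes of the 6. Cspg4 went the other way, with 103, 125 and 110 CPM in knockout and 138, 140 and 119 CPM in wild-type libraries (-0.24, adjusted p = 0.713, edgeR). Rgs5, Pdgfrb and Notch3 had log2 fold changes of 0.09, 0.15 and 0.16, and their groups overlapped. The part of epidermal and smooth muscle cell number in the Col4a6 and Col4a5 values was not tested.

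Col4a1 and Col4a2 encode the chains of the type IV molecule found in all basement membranes, and their start sites on chromosome 8 are 21 bases apart on opposite strands. Col4a1 had 624, 559 and 657 CPM in the knockout libraries, against 452, 612 and 397 CPM in the wild-type libraries. Only wild-type replicate 2 reached the knockout range. Col4a2 had 359, 333 and 395 CPM in knockout and 273, 377 and 222 CPM in wild-type libraries, with the same library as the exception. The log2 fold changes were 0.33 (-0.06 to 0.72) and 0.32 (-0.10 to 0.74), with adjusted p = 0.784 and 0.831 (edgeR). Without wild-type replicate 2 they were 0.53 and 0.55. Leaving out wild-type replicate 3 gave 0.20 and 0.15. The ratio of Col4a1 to Col4a2, in CPM per kilobase, averaged 1.65 ± 0.0379 in knockout and 1.65 ± 0.084 in wild-type (SD, n = 3 each), and stayed between 1.59 and 1.74 in the 6 libraries. Both genes are strongly made by endothelium. The sum of 7 endothelial markers was 401.4 to 433 CPM in knockout and 343.6 to 374.3 CPM in wild-type libraries, without overlap. Of the 7, 2 were higher at an unadjusted p under 0.05, as were 3.81% of all tested genes. Per 1000 CPM of the endothelial sum, Col4a1 had 1392 to 1540 CPM in knockout and 1115 to 1636 CPM in wild-type libraries.

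Col4a3 and Col4a4 encode chains of the kidney filter and also stand head to head, with start sites 72 bases apart on chromosome 1. Both were near the limit of detection. Col4a3 had 0.223, 0.295 and 0.291 CPM in knockout and 0.581, 0.361 and 0.506 CPM in wild-type libraries, from 101 counts over the 6 libraries. The groups did not overlap (log2 fold change -0.82, -1.61 to -0.03, unadjusted p = 0.0427, adjusted p = 0.662, edgeR). Col4a4 had 0.546 to 0.716 CPM in knockout and 0.502 to 1.04 CPM in wild-type libraries.

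**Figure D3:**
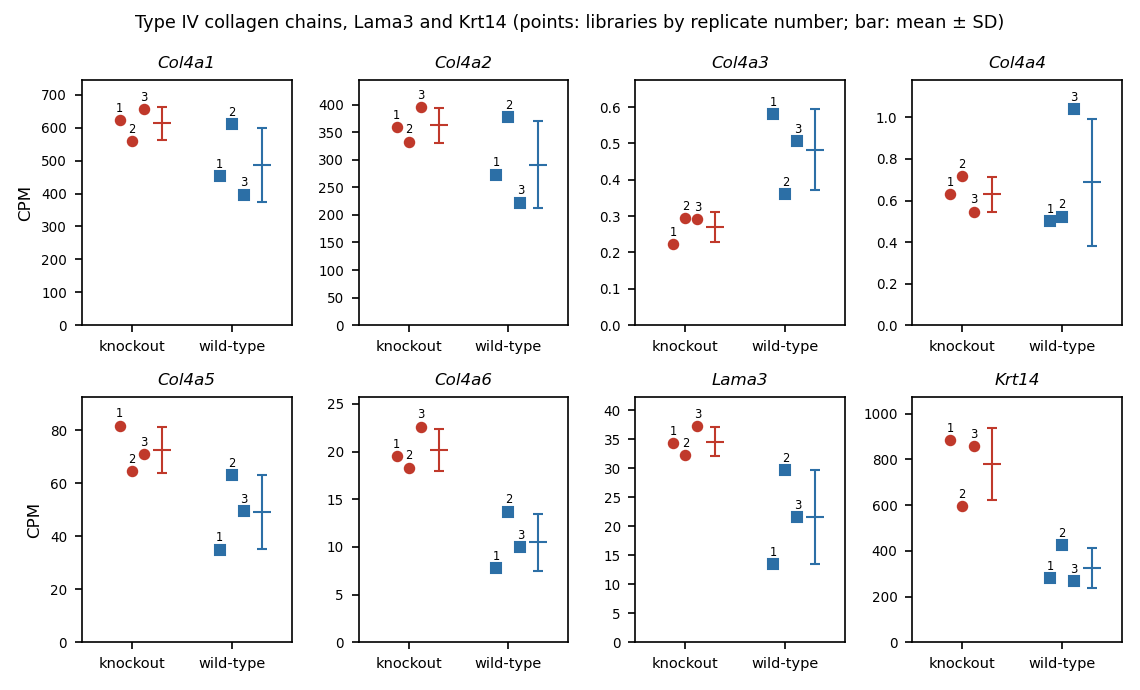
CPM of the 6 type IV collagen genes, of Lama3, a laminin chain of the epidermal basement membrane, and of Krt14, a basal keratin, with Grhl3 knockout left and wild-type right in each panel. Points are libraries numbered by replicate and bars are the mean ± SD of 3; all 3 knockout points of Col4a5, Col4a6, Lama3 and Krt14 lie above the wild-type points, and those of Col4a3 lie below.

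Type VII collagen, encoded by Col7a1, forms the anchoring fibrils below the epidermis. Col7a1 had 61.7, 60.9 and 80.6 CPM in knockout and 52, 92.5 and 67.4 CPM in wild-type libraries, with full overlap (log2 fold change -0.06, -0.53 to 0.40, adjusted p = 0.994, edgeR). On the scale of summed epidermal markers it had 18.6 to 25.1 CPM in knockout and 40.4 to 53.9 CPM in wild-type libraries, which did not overlap. That sum was itself higher in the knockout, at 2424 to 3314 CPM against 1250 to 2101 CPM in wild-type libraries. Col7a1 was not set against Trp63 alone. Col15a1 and Col18a1 encode collagens of the basement membrane zone that carry glycosaminoglycan chains. Col18a1 had 204, 193 and 236 CPM in knockout and 148, 224 and 145 CPM in wild-type libraries (log2 fold change 0.29, -0.11 to 0.70, adjusted p = 0.847, edgeR). Wild-type replicate 2 again lay within the knockout range. Col15a1 had 92.9 to 109 CPM in knockout and 81 to 127 CPM in wild-type libraries.

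The short-chain collagens of type VIII build hexagonal lattices around vessels and in the cornea. Col8a2 had 160, 129 and 164 CPM in knockout and 174, 161 and 183 CPM in wild-type libraries (log2 fold change -0.19, -0.46 to 0.07, adjusted p = 0.848, edgeR). Col8a1 had 75.2, 59 and 64.6 CPM in knockout and 46.3, 71.1 and 61.2 CPM in wild-type libraries (0.15, -0.21 to 0.52). Both overlapped between the groups, with fitted values of opposite sign. The ratio of Col8a2 to Col8a1, in CPM per kilobase, ran from 2.51 to 2.99 in knockout and from 2.67 to 4.44 in wild-type libraries.

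Type VI collagen forms beaded filaments around cells, and its standard molecule takes 1 chain each from Col6a1, Col6a2 and Col6a3. Col6a1 had 444, 329 and 542 CPM in knockout and 446, 493 and 344 CPM in wild-type libraries. Col6a2 had 482, 347 and 572 CPM in knockout and 410, 537 and 337 CPM in wild-type libraries. Col6a3 had 546, 433 and 628 CPM in knockout and 499, 594 and 415 CPM in wild-type libraries. In all 3 genes the third knockout library was the highest, the second knockout library was the lowest knockout and the groups overlapped. The log2 fold changes were 0.04, 0.13 and 0.09, each with an interval within 2-fold.

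The balance of these chains changed little between libraries. Col6a1 to Col6a2, in CPM per kilobase, was 1.05 to 1.08 in knockout and 1.04 to 1.24 in wild-type libraries. Col6a3 to Col6a1 was 0.499, 0.535 and 0.469 in knockout and 0.454, 0.489 and 0.49 in wild-type libraries. Col6a5 and Col6a6 encode chains that can take the place of the alpha3 chain. Col6a6 had 45, 19.7 and 52.3 CPM in knockout and 29.6, 39.3 and 24.1 CPM in wild-type libraries, a spread over 2-fold within the knockout. Col6a5 was at 1.05 to 2.98 CPM in knockout and 2.43 to 2.93 CPM in wild-type libraries.

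FACIT collagens sit on the surface of fibrils and bridge them to other matrix. The 6 genes had a median log2 fold change of 0.02, with 4 positive and 2 negative. Col12a1, known from tendon, fascia and sites under load, had 571, 419 and 475 CPM in knockout and 366, 616 and 465 CPM in wild-type libraries (0.02, -0.44 to 0.47). The highest and the lowest library were both wild-type. Its relative Col14a1 had 158, 87.2 and 181 CPM in knockout and 150, 147 and 114 CPM in wild-type libraries. Col16a1, a collagen of dermis and the junction below the epidermis, had 290, 239 and 292 CPM in knockout and 256, 363 and 297 CPM in wild-type libraries (-0.16, -0.50 to 0.19). Col19a1 and Col20a1 were at 1.85 to 8.75 CPM in the 6 libraries, and their groups overlapped.

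Col22a1 encodes a FACIT of tissue junctions, such as that between muscle and tendon. The gene (ENSMUSG00000079022.10, chromosome 15, 71795795 to 72034227, mm10) had 12.3, 8.3 and 13 CPM in the knockout libraries, against 19.1, 14.7 and 16.9 CPM in the wild-type libraries. Each knockout library was below each wild-type library, with means of 11.2 ± 2.51 CPM in knockout and 16.9 ± 2.23 CPM in wild-type (SD, n = 3 each). The log2 fold change was -0.60 (SE 0.19, -1.02 to -0.17, unadjusted p = 0.012, adjusted p = 0.415, edgeR). With offsets for effective transcript length it was -0.18. In the authors' deposited table Col22a1 has a log2 fold change of -0.57 and a false discovery rate of 0.29. Skeletal muscle markers did not differ in the same way, with a sum over 8 genes of 491.5 to 804.7 CPM in knockout and 492 to 807.4 CPM in wild-type libraries. The sum over 13 cartilage markers was 3154 to 4867 CPM in knockout and 5066 to 7326 CPM in wild-type libraries. Of the 13, 6 were lower at an unadjusted p under 0.05, as were 3.41% of all tested genes, and 0 passed over all genes. Per 1000 CPM of that sum, Col22a1 had 1.73 to 4.11 CPM in knockout and 2 to 3.77 CPM in wild-type libraries. The part of cartilage in the Col22a1 value was not tested.

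The transmembrane collagens span the cell surface, and part of each can be shed. Col23a1, known from epidermis, was the most abundant of them. It had 123, 154 and 126 CPM in knockout and 120, 137 and 121 CPM in wild-type libraries (log2 fold change 0.10, -0.17 to 0.36). Col25a1, which motor axons need to enter muscle, had 43.4, 40.5 and 34.4 CPM in knockout and 39.9, 46 and 56.5 CPM in wild-type libraries (-0.27, -0.60 to 0.07). Col13a1, a collagen of the junction between nerve and muscle, had 4.58 to 7.53 CPM per kilobase in knockout and 5.04 to 6.16 in wild-type libraries. All 3 overlapped between the groups. Col23a1 was the gene of the 34 with the smallest standard error, 0.11 on the log2 scale.

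The remaining genes were Col26a1 and Col28a1. Col26a1 had 270, 268 and 312 CPM in knockout and 329, 281 and 253 CPM in wild-type libraries (log2 fold change -0.02, -0.31 to 0.27). It was the sixth most abundant of the 34 per kilobase. Col28a1, known from peripheral nerve, had 0.419 to 1.16 CPM in knockout and 0.74 to 1.11 CPM in wild-type libraries.

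Libraries differed in a way that cut across classes. Among the knockout libraries, replicate 2 was the lowest for 26 of the 34 genes and replicate 3 the highest for 22. Among the wild-type libraries, replicate 2 was the highest for 23, replicate 3 the lowest for 17 and replicate 1 the lowest for 14. The summed level of all 34 was 2522, 1892 and 2823 CPM per kilobase in knockout and 2285, 2731 and 1919 in wild-type libraries. Loose mesenchyme markers (Pdgfra, Twist2, Twist1, Prrx1, Dpt, Lum and Dcn) summed to 2326, 1866 and 2117 CPM in knockout and 1996, 2214 and 2204 CPM in wild-type libraries. Knockout replicate 2 was lowest by both sums.

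The scale on which levels are read matters for collagens, because kallisto, the tool that assigned reads to transcripts, gave many of their reads to short annotated transcripts. A transcript was counted as short when it had under 0.5 times the length of the longest coding transcript of its gene. Short transcripts were annotated for 30 of the 34 genes, and in 19 they held at least 10% of the deposited TPM (transcript abundance after division by effective length) in some library. Over all 34 genes they held 21.6%, 30.8% and 30.1% of the TPM in knockout and 36.1%, 25.1% and 27.1% in wild-type libraries. Wild-type replicate 1 had the highest share for 11 of the 19 genes and knockout replicate 1 the lowest for 7.

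For Col6a3 the short share was 54.5%, 69.4% and 71.6% in knockout and 81.5%, 55% and 67.6% in wild-type libraries. Most of it belonged to Col6a3-206, a retained-intron transcript of 646 bases whose end lies 1466 bases from the 3′ end of the gene. The ratio of Col6a3 to Col6a1 was therefore 1.1, 1.73 and 1.63 in knockout and 2.33, 1.09 and 1.5 in wild-type libraries when taken in TPM, against about 0.5 per kilobase, as given above. Col16a1 was the most variable, with a short share of 2.28%, 35.5% and 49.9% in knockout and 67.4%, 10.7% and 26.4% in wild-type libraries. For Col12a1 the short transcripts took 8.94%, 22.8% and 25.3% of the counts in knockout and 42%, 10.5% and 20.8% in wild-type libraries. Col4a6 was little touched, at no more than 4.89% of TPM. Col4a5 had 0% by this cutoff, but its coding transcript Col4a5-204, of 3511 bases, lay just above the cutoff. Col4a5-204 held 41.7% of the TPM of Col4a5, with 4.08 of 15.8 TPM in knockout replicate 1 and 6.43 of 8.35 TPM in wild-type replicate 1. With offsets for effective transcript length, the log2 fold change of Col4a5 was 0.44. Of the 19 genes, Col22a1 was the one whose groups did not overlap, with 44.9%, 23.8% and 43.2% in knockout and 21.7%, 22.1% and 11% in wild-type libraries.

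**Figure D4:**
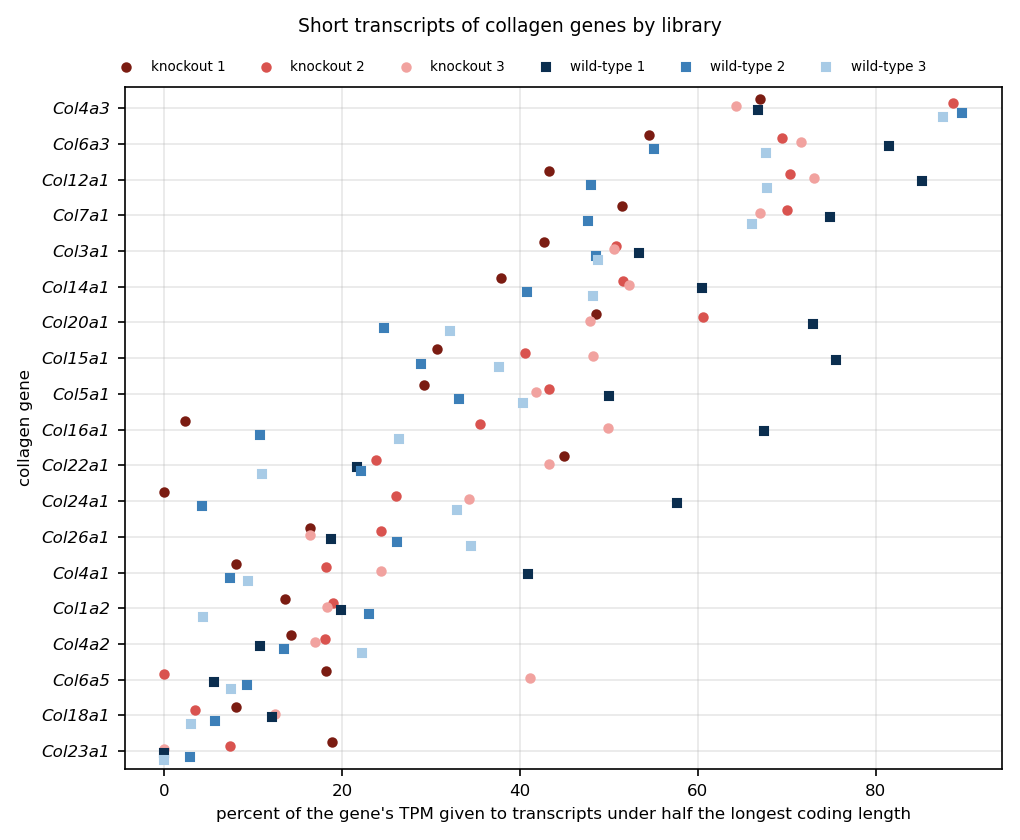
Percent of each gene's deposited TPM that lay in transcripts under 0.5 times the longest coding length, for the 19 collagen genes with at least 10% in some library, with knockout libraries as red circles and wild-type libraries as blue squares. Wild-type replicate 1 (darkest square) is the highest point in 11 rows and knockout replicate 1 (darkest circle) the lowest in 7.

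Tested transcript by transcript, 0 of 95 collagen transcripts passed, where the background was 0.00213%, 1 of 47052 transcripts (edgeR quasi-likelihood test). Kallisto divides reads between transcripts of a gene, and that division was uneven between libraries of 1 group, so single transcripts are less certain than gene sums. Col4a6-201, the full-length transcript that held 98.9% of the TPM of its gene, had 3.18, 2.95 and 3.47 TPM in knockout and 1.1, 2.5 and 1.81 TPM in wild-type libraries (log2 fold change of its counts 0.98, unadjusted p = 0.00639, adjusted p = 1, edgeR). The groups did not overlap. For Col4a5 the longest transcript, Col4a5-202, had 10.5, 6.1 and 4.94 TPM in knockout and 0.988, 4.68 and 4.17 TPM in wild-type libraries. Col4a5-201, a coding transcript of nearly the same length (6285 against 6536 bases), overlapped, with a log2 fold change of -0.25. It had 1.26, 1.37 and 3.32 TPM in knockout and 0.939, 5.04 and 2.27 TPM in wild-type libraries. How reads were divided between these 2 transcripts was not tested. A shorter coding transcript, Col4a5-204, overlapped, with 4.08 to 6.29 TPM in knockout and 4.39 to 6.43 TPM in wild-type libraries.

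Other genes of the collagen pathway were read from 5 lists of 98 genes, which cover modification and folding, processing, fibril-associated matrix, basement membrane partners and receptors. None of their tested genes passed over all genes (edgeR quasi-likelihood test), against the same background of 0.431%. DESeq2 called 4, with Prelp, Loxl4 and Itga10 among them, and the likelihood ratio test called 3, with Prelp and Itga10 among them. Unadjusted counts for each list follow, beside a background of 3.81% higher and 3.41% lower.

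Modifying enzymes, chaperones and export factors act on collagen in the endoplasmic reticulum. All 24 of this list were tested, with a median log2 fold change of -0.05, 0 higher and 4 lower at an unadjusted p under 0.05. The named genes are those with the smallest p. Sec23a, a coat protein of the vesicles that export procollagen, averaged 125 ± 14.9 CPM in knockout and 156 ± 8.71 CPM in wild-type (SD, n = 3 each; log2 fold change -0.31, adjusted p = 0.493, edgeR). Fkbp14, a folding catalyst, averaged 56.2 ± 3.21 CPM in knockout and 68.2 ± 7.12 CPM in wild-type. Colgalt2, which adds galactose to hydroxylysine, averaged 19.2 ± 0.834 CPM in knockout and 23.5 ± 1.97 CPM in wild-type. The groups did not overlap in these 3 genes, which were taken for their small p, and the fitted differences were small. Over the whole list, groups did not overlap for 5 of the 24 genes, and for 12.9% of all tested genes.

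Of the 15 genes for propeptide processing and cross-linking, 13 were tested, with a median of -0.10, 0 higher and 2 lower at an unadjusted p under 0.05. Adamts14, a protease that trims the amino end of procollagen, had 14.8, 14.1 and 16.1 CPM in knockout and 18.9, 21 and 18.9 CPM in wild-type libraries (log2 fold change -0.39, adjusted p = 0.335, edgeR). Loxl4, a cross-linking oxidase, had 2.64, 1.6 and 1.8 CPM in knockout and 7.66, 2.11 and 7.01 CPM in wild-type libraries (-1.47, adjusted p = 0.392, edgeR). Loxl3 averaged 46 ± 4.4 CPM in knockout and 52.8 ± 2.55 CPM in wild-type.

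The 22 genes of fibril-associated matrix had a median of -0.02, with 0 higher and 1 lower at an unadjusted p under 0.05. That gene was Prelp, a leucine-rich proteoglycan known to link basement membrane and connective tissue. It had 13.5, 15.1 and 13.7 CPM in knockout and 19.9, 19.8 and 20.6 CPM in wild-type libraries (log2 fold change -0.51, adjusted p = 0.122, edgeR), with little spread in either group. The next by p were Aspn, at 64 ± 20.6 CPM in knockout and 86.5 ± 19.6 CPM in wild-type, and Fbln1, at 172 ± 18 CPM in knockout and 152 ± 26.6 CPM in wild-type.

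The 18 basement membrane partners had a median of 0.07, with 3 higher and 0 lower at an unadjusted p under 0.05. Lama3 and Lamb3, which encode laminin chains of the epidermal basement membrane, are among these. Lama3 had 34.3, 32.3 and 37.2 CPM in knockout and 13.5, 29.7 and 21.6 CPM in wild-type libraries (log2 fold change 0.68, adjusted p = 0.516, edgeR). Lamb3 had 9.46, 9.1 and 12.3 CPM in knockout and 5.86, 9.27 and 6.76 CPM in wild-type libraries (0.49, adjusted p = 0.649, edgeR). The groups did not overlap for Lama3 and overlapped for Lamb3.

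Of the 19 receptors and turnover genes, 16 were tested, with a median of 0.10, 2 higher and 1 lower at an unadjusted p under 0.05. Itga10, the collagen-binding integrin chain of chondrocytes, had 13.1, 16 and 13.6 CPM in knockout and 22.3, 25.2 and 22.7 CPM in wild-type libraries. Its log2 fold change was -0.72 (SE 0.12, adjusted p = 0.059, edgeR), beside the lower cartilage markers given above. Ddr1, a collagen-activated receptor kinase of epithelia, had 129, 120 and 148 CPM in knockout and 90.8, 118 and 93.6 CPM in wild-type libraries (0.39, adjusted p = 0.457, edgeR). Adgrg1, a receptor that binds type III collagen in brain, had 29.9, 28.5 and 34.5 CPM in knockout and 16.5, 28.5 and 16.5 CPM in wild-type libraries (0.59, adjusted p = 0.529, edgeR).

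The authors' deposited table lists 941 genes with p-values up to 0.0506, and 4 of the 34 collagen genes are among them. Besides the 3 given above, it lists Col24a1 with a log2 fold change of -0.44 and a false discovery rate of 0.773. Of these 4, Col4a6 alone has a false discovery rate under 0.05 there.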

How the data were processed

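Polyadenylated RNA from 3 Grhl3 knockout and 3 wild-type handpads was sequenced with a stranded Illumina mRNA kit, per the labels. Per the submitters' processing notes, FastQC and kallisto were used with build mm10. No version or transcript set is named in the sources used here. Each deposited table holds, per the file headers, an estimated count and a TPM for 111462 transcripts. The authors' deposited edgeR table lists genes with their log2 fold change and log2 CPM, a score from the likelihood ratio test, and the raw and adjusted p-value.

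Transcripts were matched to the GENCODE mouse annotation of the same build. Of them 110203 matched, and the 1259 others held 0.504% to 0.566% of a library's counts and were left out. Estimated counts were summed per gene and rounded. TPM was used only to describe levels and transcripts.

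The comparison used R 4.3.3 and edgeR 4.0.16 (glmQLFit and glmQLFTest, TMM scaling) with no term but genotype. The filter was filterByExpr (minimum count 10, minimum total 15). P-values were adjusted by Benjamini-Hochberg over all 16938 genes and called under 0.05. The script was tested on simulated data. Transcripts were tested the same way. DESeq2 1.42.0 and limma 3.58.1 (voom) served as alternatives, with other scalings, filters, length offsets, a Y-linked term, a replicate block and each library left out. Reads carry no molecular identifiers, and no intervals are given for single counts. The 95% intervals of log2 fold changes come from the edgeR fit and include the spread between libraries. Near-identical genes would share reads as kallisto divided them.

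The collagen genes, the pathway lists and the marker lists (cartilage, osteoblast, tendon, skeletal muscle, endothelium, pericyte and smooth muscle, epidermis, Schwann and nerve, loose mesenchyme, erythroid, macrophage and limb) were chosen with earlier results of these data known. Full values are given for the most abundant gene of each class by TPM and for genes at an unadjusted p under 0.05, and beyond that rule for chains of 1 molecule and other genes whose role bears on the class. Of each pathway list, up to 3 genes with the smallest p are named; the values of 1 gene so taken are not reported here. Ratios and values per marker sum were chosen after the data were seen. Promoter sequences and windows come from RefSeq tables.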

Additional observations from a re-analysis of the deposited data

How the results depend on the processing

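Of the 34 collagen genes, 0 were called in the main test and under every alternative but DESeq2 and the likelihood ratio test, which each called 1 (Col4a6). At a false discovery rate under 0.1 the count was also 0. Over all tested genes the count, 73 in the main test, was 299 with DESeq2, 260 with the likelihood ratio test, 118 with no filter, 47 with the replicate block, 45 with limma-voom and 44 with effective length offsets. Leaving out 1 library gave 10 (without wild-type replicate 3) to 206 (without wild-type replicate 1), and 17, 22 and 45 when knockout replicate 1, knockout replicate 3 or wild-type replicate 2 was dropped. The causes were not tested.

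The pathway lists had 0 calls each in the main test. DESeq2 called 1 gene in each of 4 lists, with Loxl4, Prelp and Itga10 among them. The likelihood ratio test called 1 in each of 3 lists, with Prelp and Itga10 among them. The Y-linked term called 2 basement membrane partners, with Lama3 among them, and the fit with no filter called 1 receptor, Itga10. Leaving out 1 library gave 0 to 1 call for processing (Loxl4 without wild-type replicate 2), for partners (without wild-type replicate 2) and for receptors (Itga10 without wild-type replicate 1). The list of hydroxylation and folding had 0 calls in all of these fits. Collagen transcripts called stayed at 0 with no filter, the likelihood ratio test, the replicate block and each library left out.

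Of the 34 genes, 12 kept the sign of the log2 fold change in every alternative run for them (up to 18, since rare genes could not be tested at a minimum count of 50), and the genes whose sign turned were uncalled in the main test and in the alternative. The Y-linked term gave -0.082 for Col5a3, 0.023 for Col24a1, 0.39 for Col4a4, 0.42 for Col7a1, -0.038 for Col6a1, -0.10 for Col14a1, 0.11 for Col16a1, 0.0031 for Col25a1 and 0.043 for Col28a1. Effective length offsets gave -0.0073 for Col5a2, -0.095 for Col15a1, -0.12 for Col6a3, -0.14 for Col12a1 and -0.012 for Col14a1. Library totals without scaling gave -0.03 for Col5a2, -0.019 for Col12a1 and -0.024 for Col19a1. Col5a2 was at -0.0002 with RLE scaling and with DESeq2, and Col14a1 at -0.0098 with limma-voom and -0.0048 with the replicate block. Counting long transcripts only, an alternative added after the data were seen, gave 0.00097 for Col26a1.

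With 1 library left out, the range of the log2 fold change was -0.36 to 0.15 for Col1a1, -0.089 to 0.22 for Col1a2, -0.075 to 0.30 for Col5a1, -0.11 to 0.15 for Col5a2 and -0.22 to 0.46 for Col5a3. It was -0.29 to 0.29 for Col4a4, -0.24 to 0.18 for Col7a1, -0.05 to 0.30 for Col15a1, -0.15 to 0.20 for Col6a1, -0.044 to 0.33 for Col6a2 and -0.037 to 0.23 for Col6a3. It was -0.15 to 0.23 for Col12a1, -0.16 to 0.30 for Col14a1, -0.27 to 0.27 for Col19a1 and -0.031 to 0.35 for Col20a1. It was -0.13 to 0.23 for Col13a1, -0.018 to 0.16 for Col23a1 and -0.11 to 0.088 for Col26a1. Class medians moved beyond 1 SD of the replicates in 7 of 126 recomputations.

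The labels do not say that replicate numbers pair the samples. Deviations of same-numbered libraries from their group means correlated at -0.244, -0.092 and -0.162 over genes, and no library correlated best with its own number. With 3 libraries per group, such correlations cannot exclude pairing. The block is therefore only an alternative, and it called 0 collagen genes. Depth limits Col4a3, Col4a4 and Col28a1, which had 101, 181 and 235 counts over the 6 libraries.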

Other observations

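Other tissues were read from further marker lists. Of 6 tendon markers, with Tnmd, Scx and Kera among them, 0 had an unadjusted p under 0.05, against 7.22% of all tested genes. They summed to 361.9 to 644.5 CPM in knockout and 472.3 to 559.7 CPM in wild-type libraries. The lowest library was knockout replicate 2, which was also the lowest knockout library for 26 of the 34 collagen genes.

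Schwann and nerve markers summed to 95.58 to 112.7 CPM in knockout and 83.02 to 105.2 CPM in wild-type libraries. Macrophage markers summed to 84.12 to 129.2 CPM in knockout and 87.78 to 117.7 CPM in wild-type libraries. Erythroid markers summed to 4904 to 8409 CPM in knockout and 4025 to 6535 CPM in wild-type libraries. In these 3 lists the groups overlapped.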
